A study of Mus musculus with 2 samples.

Results

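The genes described are 33 enzymes and carriers of the tricarboxylic acid cycle, the malate-aspartate shuttle and the supply of NADPH, chosen by name from knowledge of these pathways, of 55450 annotated mouse genes on the reference chromosomes. They were sorted by role into 16 enzyme subunits of the cycle, 6 genes of the shuttle and sets of 6 and 5. The set of 6, called the NADPH set, holds the malic enzymes, the NADP-dependent isocitrate dehydrogenases and the transhydrogenase. The set of 5, called the entry and exit set, holds the cytosolic aconitase Aco1 and genes of carbon entering or leaving the cycle. The samples are total RNA from the heart of 14-day-old B6CASTF1/J females, a cross whose parents are C57BL/6J and CAST/EiJ, and the labels name neither a treatment nor a mutation. There is 1 group with 2 libraries, both prepared from 300 ng of RNA and spiked with ERCC control RNAs. Both libraries carry the same donor label and a shared description that may mean pooled animals, although their tissue labels are numbered apart, so the spread given as SD (n = 2) may be partly technical. With 1 group nothing could be tested between conditions, and all comparisons are of size.

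The cycle oxidises acetyl-CoA in the mitochondrial matrix and passes electrons to the respiratory chain as NADH and through succinate dehydrogenase. The shuttle carries the reducing power of cytosolic NADH into the matrix by exchanging malate and 2-oxoglutarate, aspartate and glutamate across the inner membrane. NADPH, which keeps glutathione and thioredoxin reduced, is made in the matrix by isocitrate dehydrogenase, malic enzyme and the proton-driven transhydrogenase. The heart, which contracts without rest on oxidative metabolism, is known as a tissue dense in mitochondria.

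Levels are from the first of 2 deposited quantifications unless the second is named. The libraries held 36194359 and 34355678 expected counts in annotated genes, of which the 33 genes took 435932 and 426828, or 1.22% ± 0.0268 (SD, n = 2). No gene was near the limit of counting: the lowest, Slc25a1, had 130 and 142 counts. Checked against the heart label, all 6 cardiomyocyte markers were above 100 TPM (the deposited unit of level, which is corrected for transcript length), with summed levels of 30671 and 32333 TPM. All 6 markers of brown and white fat, of which brown fat is also rich in mitochondria, were above 1 TPM. Their sums were 118 and 139 TPM in replicates 1 and 2. Of 5 liver markers 0 were above 1 TPM, with sums of 0.81 and 1.33 TPM in replicates 1 and 2. Red cell markers summed to 13178 and 10190.3 TPM and lung epithelium markers to 97.9 and 6.84 TPM. The part of these cells in the levels below was not tested, and in bulk tissue fewer cells of a type and less RNA per cell cannot be told apart.

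The genes of the cycle core were among the more abundant messages of the heart, and the 5 genes of the entry and exit set were not. A mean of 100 TPM or more was reached by 21 of the 33 genes, against 5.16% of the 13037 annotated genes detected at 1 TPM or more, and 29 had at least 10, against 47.2%. Their median was 243 and 242 TPM in replicates 1 and 2, while the median of all detected genes was 9.09 TPM. Together they made up 1.96% ± 0.0231 (SD, n = 2) of the TPM of nuclear protein-coding genes. By role, the median was 303 TPM in the cycle, 234 TPM in the shuttle, 42.3 TPM in the NADPH set and 9.10 TPM in the entry and exit set. At least 100 TPM was reached by 15 of 16, 4 of 6, 2 of 6 and 0 of 5 genes of these sets. The cycle genes thus held 67.0% of the summed TPM of the 33 genes, the shuttle 22.1%, the NADPH set 10.3% and the entry and exit set 0.628%. When the genes were ordered by mean TPM, 24 of 32 neighbouring pairs kept that order in both libraries. The other 8 pairs, such as Ogdh with Idh2 and Nnt with Dld, could not be ordered beyond the spread between libraries.

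**Figure D1:**
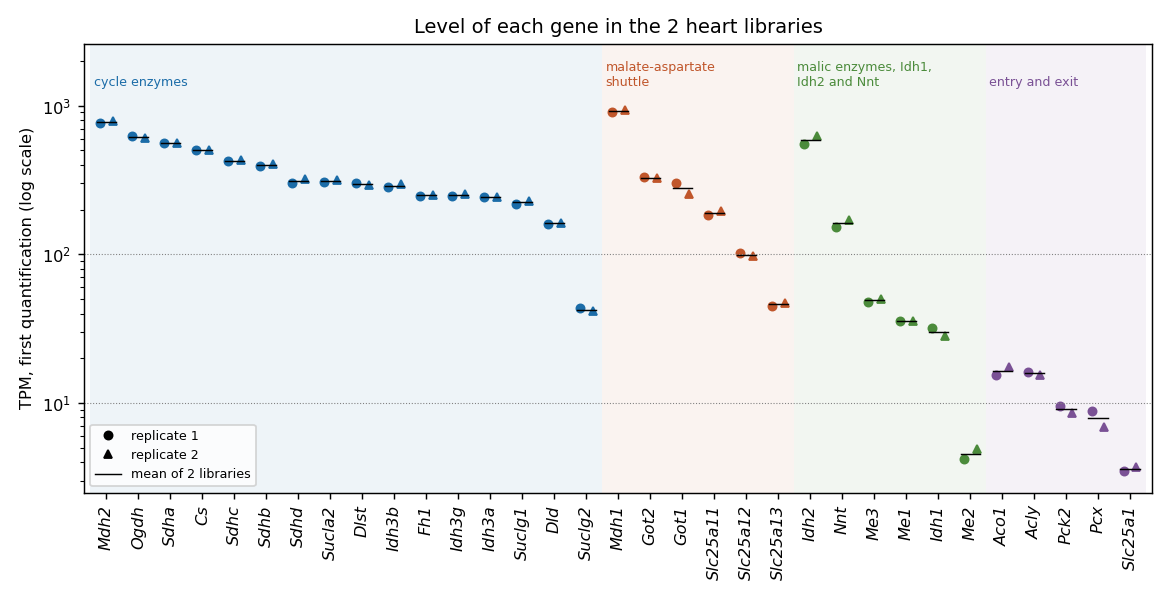
TPM of the first quantification for each gene (log axis), with circles for replicate 1, triangles for replicate 2 and a bar at their mean, sorted by role and level. In the cycle set 15 of 16 genes lie above the dotted line at 100 TPM, while all 5 entry and exit genes lie between 3.60 and 16.5 TPM.

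Citrate synthase, Cs, which joins acetyl-CoA to oxaloacetate and is widely used as a marker of mitochondrial content, had 500.3 and 507 TPM in replicates 1 and 2. Both libraries were alike for it, with a mean of 504 ± 4.65 TPM (SD, n = 2). The 3 subunits of the NAD-dependent isocitrate dehydrogenase, a regulated step that yields NADH, stood within a narrow band at the gene level. The catalytic subunit Idh3a had 243 and 242 TPM, the regulatory subunit Idh3b had 284 and 295 TPM, and Idh3g, on the X chromosome, had 245 and 253 TPM. The highest of them was 1.19 ± 0.0371 times the lowest (SD, n = 2), the smallest such ratio among the 4 complexes measured at the gene level. Over protein-coding transcripts, a comparison added after the data were seen, it was 2.06 ± 0.157 in the first and 2.80 ± 0.250 in the second quantification, with Idh3a the lowest. It then exceeded the ratio within succinate dehydrogenase, at 1.37 ± 0.0321 in the first and 1.81 ± 0.0238 in the second.

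The 2-oxoglutarate dehydrogenase complex was less even. Its decarboxylating subunit Ogdh had 625 and 604 TPM, the succinyltransferase Dlst 300.4 and 293 TPM, and the dihydrolipoamide dehydrogenase Dld, which serves other dehydrogenase complexes too, 159.7 and 163 TPM. Ogdh was 3.81 ± 0.145 times Dld (SD, n = 2), and 4.96 ± 0.273 times in the second quantification. Ogdhl, the paralogue of Ogdh known mainly from brain, had 17.9 and 13.5 TPM. The log2 ratio of Ogdh over Ogdhl was 5.30 ± 0.25, about 39.5-fold.

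Succinyl-CoA ligase makes ATP or GTP, depending on which beta subunit joins the shared alpha subunit Suclg1. The ADP-dependent beta subunit Sucla2 had 305 and 315 TPM, against 43.3 and 41.6 TPM for the GDP-dependent Suclg2. Their groups of values lie far apart, and the log2 ratio of Sucla2 over Suclg2 was 2.87 ± 0.07 (SD, n = 2), a 7.31-fold difference. Suclg2 was thus 12.0% ± 0.543 of the beta subunit TPM, and 12.0% ± 0.428 in the second quantification. It was the only one of the 16 cycle genes below 100 TPM. Suclg1 had 219.5 and 228 TPM, and the sum of both beta subunits was 1.58 ± 0.0143 times that level.

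Succinate dehydrogenase is the cycle enzyme that is also a complex of the respiratory chain. Its flavoprotein Sdha had 561 and 565 TPM, the iron-sulfur subunit Sdhb 392 and 403 TPM, and the membrane anchors Sdhc 422 and 431 TPM and Sdhd 303 and 320 TPM. The highest was 1.81 ± 0.0615 times the lowest. The order depended on the quantification: the second quantification gave the highest level to Sdhb, at 535 and 568 TPM, and the lowest to Sdhc, at 290.4 and 315 TPM. Fumarase, Fh1, had 249 and 252 TPM.

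Mitochondrial malate dehydrogenase, Mdh2, which closes the cycle and also serves the shuttle, had 766 and 788 TPM, the highest of the 16 cycle genes in the first quantification. It was not the highest in the second, with 899.8 and 925 TPM against 1134 and 1094 TPM for Ogdh, nor over protein-coding transcripts in the first, with 482 and 508 TPM against 618 and 598 TPM for Ogdh. A large part of this level was not assigned to its coding messenger. In the first quantification Mdh2-201, which codes for the enzyme, held 62.6% and 64.2% of the TPM, and Mdh2-203, annotated as a target of nonsense-mediated decay, held 36.2% and 34.8%. Mdh2-203 lacks exon 2 of Mdh2-201 (169 bases, chr5:135783305-135783473, mm10, plus strand), and since that length is not a multiple of 3 the reading frame shifts. The second quantification gave Mdh2-203 only 7.50% and 4.83%. The transcripts differ also at their ends. The first exon starts at 135778480 in Mdh2-201 and at 135778662 in Mdh2-203, and the last exon is 315 and 322 bases long. Which of these differences decided the split was not tested. Exon 2 is shown with its bases in capitals between 20 bases of each neighbour, followed by the junction that replaces it. In the junction the capitals are the 3 bases on either side.
Mdh2-201 with exon 2: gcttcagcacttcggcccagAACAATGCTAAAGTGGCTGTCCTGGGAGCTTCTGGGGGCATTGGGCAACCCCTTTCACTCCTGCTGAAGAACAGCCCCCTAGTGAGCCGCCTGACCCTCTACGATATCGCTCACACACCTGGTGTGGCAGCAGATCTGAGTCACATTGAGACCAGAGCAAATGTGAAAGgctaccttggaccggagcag
Mdh2-203 junction: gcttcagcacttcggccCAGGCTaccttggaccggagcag

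Idh3a showed a split in both quantifications. The coding Idh3a-205 held 58.0% and 55.1% of the TPM in the first quantification and 41.4% and 38.9% in the second. Idh3a-204, annotated as a target of nonsense-mediated decay, held 40.6% and 42.65% in the first and 58.0% and 60.5% in the second, where it led. Idh3a-204 carries an added exon of 95 bases (chr9:54592161-54592255, mm10, plus strand), and 95 is not a multiple of 3. The ends differ as well. The first exon starts at 54586334 in Idh3a-205 and at 54586481 in Idh3a-204. The last exon is 1380 bases long in Idh3a-205 and 664 in Idh3a-204, for total lengths of 2580 and 1812 bases. Which of these differences decided the split was not tested. The junction of Idh3a-205 is shown with the 3 bases on either side in capitals, and the same place in Idh3a-204 with the first 10 bases of the added exon in capitals.
Idh3a-205 junction: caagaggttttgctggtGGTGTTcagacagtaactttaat
Idh3a-204 entry into the added exon: caagaggttttgctggtggtGGCATCGTTT

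In the shuttle, the level of the cytosolic malate dehydrogenase Mdh1 (chr11:21556787-21572367, mm10, minus strand) was the highest of the 33 genes in the first quantification, at 912 and 933 TPM in replicates 1 and 2, above 99.5% of the detected genes. In the second, at 773 and 825 TPM, it stood below Ogdh and Mdh2. The log2 ratio of Mdh2 over Mdh1 was -0.25 ± 0.01 (SD, n = 2) in the first quantification, but 0.19 ± 0.04 in the second. Over protein-coding transcripts it was -0.88 in the first and 0.10 in the second. Which of them was higher therefore depended on the quantification. The aminotransferases were close to each other: the mitochondrial Got2 had 331 and 326 TPM and the cytosolic Got1 had 302 and 254 TPM, a log2 ratio of Got2 over Got1 of 0.25 ± 0.16. Got2 was above Got1 in both libraries, but by unequal amounts, with log2 ratios of 0.13 and 0.36.

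The carriers of the inner membrane were lower than the enzymes of the shuttle in the first quantification. Slc25a11, which exchanges 2-oxoglutarate for malate, had 183 and 197 TPM in the first and 266 and 347 TPM in the second quantification, where Got1 had 330.4 and 285 TPM and the order of Slc25a11 and Got1 differed between the libraries. Slc25a12, the aspartate/glutamate carrier known as the form of heart, skeletal muscle and brain, had 101 and 97.2 TPM, and Slc25a13, the form known from liver, had 45.2 and 47.0 TPM. On this gene level the log2 ratio of Slc25a12 over Slc25a13 was 1.11 ± 0.08 (SD, n = 2), a 2.15-fold difference in the same direction in both libraries and both quantifications. The direction turned when only protein-coding transcripts were counted, a comparison added after the data were seen. Then Slc25a12 had 9.69 and 8.28 TPM, against 42.3 and 45.1 TPM for Slc25a13, and the log2 ratio was -2.29 ± 0.23 in the first quantification and -1.80 ± 0.17 in the second.

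This turn rests on the transcript Slc25a12-207, annotated as a target of nonsense-mediated decay, which led the gene with 71.3% and 72.7% of its TPM in the first quantification and 64.3% and 57.4% in the second. The coding Slc25a12-206 held 9.55% and 8.52% in the first and 13.1% and 11.4% in the second. Since it is the longer one, its share of the counts was larger, at 24.6% in the first quantification. Slc25a12-207 lacks exon 4 of Slc25a12-206 (116 bases, chr2:71333605-71333720, mm10, minus strand), a length that is not a multiple of 3. The transcripts differ also at the other end: the last exon is 664 bases long in Slc25a12-207 and 4291 in Slc25a12-206, for total lengths of 2392 and 6351 bases. Whether the reads that decided the split fell on exon 4 or on the last exon was not tested, since the deposited tables hold no read positions. Exon 4 is shown in capitals, and then the junction without it.
Slc25a12-206 with exon 4: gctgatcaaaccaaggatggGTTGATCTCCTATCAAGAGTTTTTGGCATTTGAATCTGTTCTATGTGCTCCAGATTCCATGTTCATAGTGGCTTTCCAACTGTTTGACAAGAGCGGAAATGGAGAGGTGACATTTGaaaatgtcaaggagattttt
Slc25a12-207 junction: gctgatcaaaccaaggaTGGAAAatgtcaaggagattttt

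In the NADPH set the mitochondrial isocitrate dehydrogenase Idh2 stood far above its cytosolic counterpart Idh1. Idh2 had 553 and 621 TPM and Idh1 had 32.0 and 28.25 TPM. The log2 ratio of Idh2 over Idh1 was 4.28 ± 0.25 (SD, n = 2), or 19.5-fold, and 4.22 ± 0.32 in the second quantification. Idh2 was also above the catalytic subunit of its NAD-dependent neighbour in the matrix: the log2 ratio of Idh2 over Idh3a was 1.27 ± 0.12. It was 0.87 as counts scaled to library size, and 2.07 and 2.40 over protein-coding transcripts in the first and second quantification. For Idh1 the start site differed between the quantifications. The first gave 78.2% and 71.7% of its TPM to Idh1-201, and the second gave 65.0% and 73.6% to Idh1-203, whose first exon lies 7298 bases upstream on chromosome 1. Both transcripts have a coding length of 1245 bases.

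The malic enzymes turn malate into pyruvate. The mitochondrial NADP-dependent Me3 had 48.0 and 50.1 TPM, the cytosolic Me1 had 35.4 and 35.9 TPM, and Me2, a mitochondrial form that uses NAD, had 4.18 and 4.94 TPM. On this scale the log2 ratio of Me3 over Me1 was 0.46 ± 0.03 (SD, n = 2). The order of Me3 and Me1 did not hold on other scales. Counts scaled to library size (CPM), which are not corrected for length, gave -0.59, and protein-coding transcripts alone gave -4.18 in the first and -3.11 in the second quantification. Most of the Me3 level lay in Me3-201, a processed transcript with 49.5% and 50.6% of the TPM, and in Me3-203, a retained intron transcript with 43.5% and 43.9%. The coding Me3-202, at 4485 bases the longest of them, held 4.71% and 3.28%, or 2.26 and 1.64 TPM, and 11.6% of the counts. Me2 was lower than Me1 under every one of these settings, with a log2 ratio of Me2 over Me1 of -2.97 ± 0.16.

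Nnt, the transhydrogenase that uses the proton gradient to make NADPH from NADH (chr13:119335448-119408997, mm10, minus strand), had 152 and 170 TPM. C57BL/6J, the strain of the mm10 assembly, is known to carry a deletion of several Nnt exons, and exons that this assembly lacks were not analysed here. The longer annotated coding transcript, Nnt-202, has 17 exons and a coding length of 2508 bases. Nnt-201 lacks exons 8 and 9 of it, of 146 and 196 bases, together 342 bases or 114 codons, so the frame is kept. The first quantification gave Nnt-202 53.9% and 57.7% of the TPM and Nnt-201 44.5% and 40.4%. The second gave Nnt-201 only 5.04% and 4.84% of the TPM, so the share of messages without these exons depended on the quantification.

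The second quantification led instead with Nnt-206, at 64.2% and 58.9%, which the annotation places in a gene of its own with the same symbol. All 3309 of its 31-base words also occur in Nnt-202, so a read of that length within it cannot be told from Nnt-202, and the first quantification listed it at 0 counts. The sum over both entries was 167 and 192 TPM in the second quantification. The sources used here do not say how reads of the CAST/EiJ allele were handled, and their part in these shares was not tested. Exon 8 (chr13:119374629-119374774, mm10, minus strand) and exon 9 (chr13:119372396-119372591, minus strand) are shown in capitals with 20 bases on each side, and the junction that skips both with 3 bases on either side in capitals.
Nnt-202 with exon 8: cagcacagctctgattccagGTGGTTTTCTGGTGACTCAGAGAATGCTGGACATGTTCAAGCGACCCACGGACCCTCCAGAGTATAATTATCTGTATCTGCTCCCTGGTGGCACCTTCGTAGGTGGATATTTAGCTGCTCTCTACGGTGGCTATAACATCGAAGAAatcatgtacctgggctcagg
Nnt-202 with exon 9: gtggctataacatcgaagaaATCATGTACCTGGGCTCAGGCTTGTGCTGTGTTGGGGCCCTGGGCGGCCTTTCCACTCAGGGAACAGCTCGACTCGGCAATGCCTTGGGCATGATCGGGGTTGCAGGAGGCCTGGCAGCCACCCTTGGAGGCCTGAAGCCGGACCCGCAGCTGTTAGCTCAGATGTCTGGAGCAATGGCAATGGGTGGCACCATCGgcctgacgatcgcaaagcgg
Nnt-201 junction: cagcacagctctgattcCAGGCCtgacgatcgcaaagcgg

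The genes of the entry and exit set were low beside the other sets, with a median close to that of all detected genes. Aco1, the cytosolic aconitase that is also the iron-regulatory protein, had 15.5 and 17.5 TPM, above 67.7% of the detected genes. Acly, which splits cytosolic citrate for lipid synthesis, had 16.3 and 15.5 TPM, and the citrate carrier Slc25a1 that supplies it had 3.47 and 3.73 TPM, above 24.3% of them and the lowest of the 33 genes in the first quantification (in the second, Me2 was lowest). Set against the enzyme that makes citrate, Acly was lower by a wide margin, with a log2 ratio of Cs over Acly of 4.98 ± 0.06 (SD, n = 2). Pyruvate carboxylase, Pcx, which refills oxaloacetate, had 8.89 and 6.86 TPM. Mitochondrial phosphoenolpyruvate carboxykinase, Pck2, had 9.61 and 8.59 TPM, against 17.7 and 18.7 TPM for its cytosolic counterpart Pck1, a log2 ratio of Pck2 over Pck1 of -0.88 and -1.12 in replicates 1 and 2. Over protein-coding transcripts it was -1.49 in the first and -1.62 in the second quantification.

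Among 27 other genes of these pathways, 26 reached a mean of 1 TPM and 18 reached 10. The subunits of the mitochondrial pyruvate carrier were above 100 TPM, Mpc1 at 210.5 and 206 TPM and Mpc2 at 203 and 209 TPM. Lower levels were found for Glud1, glutamate dehydrogenase, at 53.6 and 53.8 TPM, Gpd1, the cytosolic enzyme of the glycerol phosphate shuttle, at 38.2 and 42.5 TPM, and Sdhaf4, an assembly factor of succinate dehydrogenase, at 27.95 and 31.7 TPM. The median of the 27 was 16.0 TPM.

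**Figure D2:**
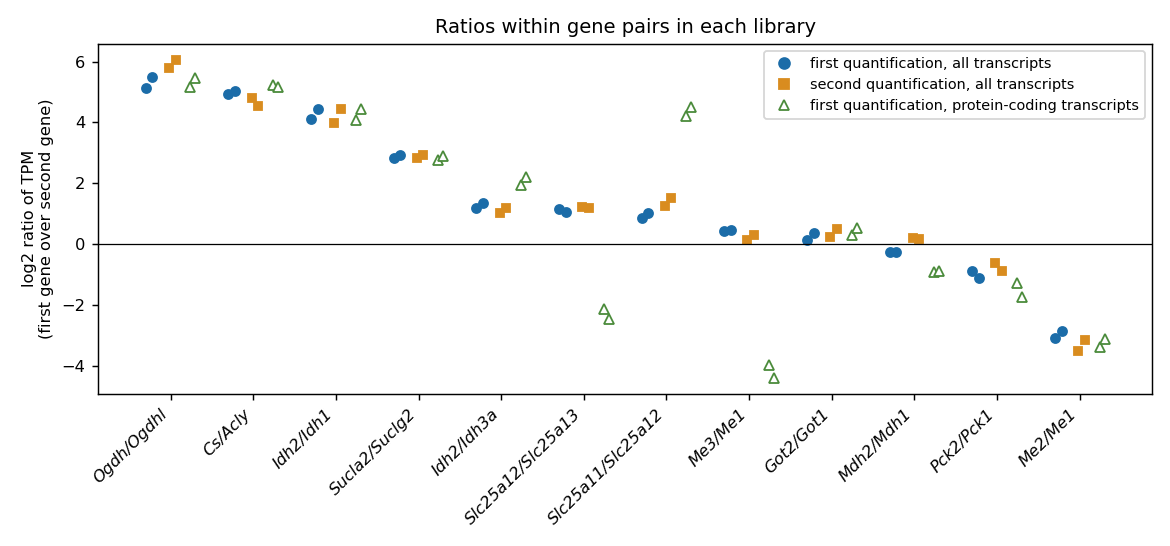
Log2 ratio of TPM of the first over the second gene named, for 12 pairs, with 1 point per library: circles for the first and squares for the second quantification over all transcripts, open triangles for the first quantification over protein-coding transcripts. Ratios of Slc25a12 over Slc25a13 and of Me3 over Me1 lie above 0 over all transcripts and below 0 over protein-coding ones, and Mdh2 over Mdh1 crosses 0 between the quantifications.

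Of the 12 pairs compared, the first-named gene was higher in both libraries in 9. In the second quantification it was higher in 10, with Mdh2 over Mdh1 added. With protein-coding transcripts only, the first-named gene was higher in 7 pairs in the first and in 8 in the second quantification. Such counts depend on which gene was named first, and the pairs were chosen with earlier results of these data known. Ratios of Sucla2 over Suclg2, Idh2 over Idh1 and Ogdh over Ogdhl stayed within 2.41 to 2.88, 4.16 to 4.28 and 5.29 to 5.96 on the log2 scale across these settings, CPM and the posterior mean TPM.

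At the median the libraries differed less in these genes than over all genes, but not in every set. A gene was called different when log2(TPM + 1) of replicate 1 minus replicate 2, with the median over genes removed, was at least 1.2-fold in size, the mean expected count was at least 50 and the deposited intervals did not overlap. Of the 33 genes 1 was called, Got1, against 6.84% of the 12871 genes examined. The size of the difference was 0.05 at the median over the 33 genes, against 0.11 over all genes and 0.07 over the 673 genes with at least 100 TPM. In the cycle set the median was 0.02 and in the shuttle 0.06. It was 0.14 in both the NADPH set and the entry and exit set, above that of all genes. Replicate 1 was higher in 15 genes and replicate 2 in 18.

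Got1 (chr19:43499752-43524605, mm10, minus strand) had 15707 and 12754 expected counts, and its log2 difference was 0.28. Its CPM ratio, replicate 1 over replicate 2, was 1.17, with an exact 95% interval of 1.14 to 1.197 that covers counting error only. The call sits at its threshold: without removing the median the difference was 0.25 and Got1 was not called. Pcx differed more in TPM, by 0.36, but its intervals overlapped, with only 711 and 579 counts. Intervals that did not overlap were also found for Idh2, Idh3b, Nnt, Ogdh, Sdhd and Slc25a11, 7 genes with Got1, where 12.1% of all genes had such intervals. Idh2 and Nnt were both lower in replicate 1, by -0.14 and -0.13, and their CPM ratios, replicate 1 over replicate 2, were 0.874 (0.860 to 0.889) and 0.875 (0.855 to 0.896). The deposited intervals belong to a posterior estimate and can lie below the TPM itself, as for Cs in replicate 1, from 484 to 493 against a TPM of 500.3.

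**Figure D3:**
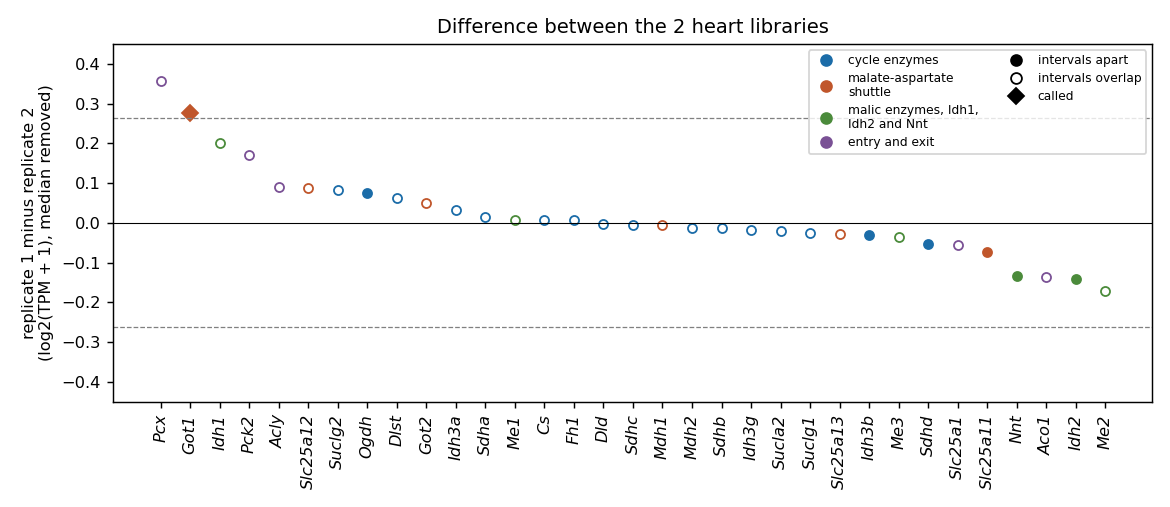
Difference between replicate 1 and replicate 2 in log2(TPM + 1) after the median over genes was removed, for each gene, with dashed lines at 1.2-fold. Filled points have deposited intervals that do not overlap. Got1, drawn as a diamond, is the only gene that is both past the line and filled, and the cycle genes gather near 0.

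The 2 quantifications of each library were set side by side. The log2 of first over second TPM had a median of -0.27 and -0.33 over the 33 genes in replicates 1 and 2, against -0.23 and -0.27 over all 12685 genes in both tables. Called apart when the first over the second quantification was at least 1.5-fold in the same direction in both libraries were Ogdh, Dlst and Fh1, 3 of 33 genes, against 11.2% of these genes. All 3 were lower in the first. Ogdh had 625 and 604 TPM in the first and 1134 and 1094 TPM in the second quantification. Fh1 had 249 and 252 TPM in the first and 458 and 473 TPM in the second, and Dlst 300.4 and 293 TPM in the first and 519.6 and 496 TPM in the second. In all, 30 of 33 genes were lower in the first in both libraries, where 85.0% of all genes were, and Mdh1, Sdha and Sdhc were higher. The direction moved with the scale. With both quantifications rescaled over nuclear protein-coding genes, 11 genes were lower and 21 higher in the first in both libraries. Ogdh, at -0.47 and -0.43 on the log2 scale, Dlst and Fh1 were then still lower but no longer called, while Mdh1, at 0.62 and 0.60, and Sdhc, at 0.92 and 0.88, were called higher.

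The counts behind these levels hardly differed. Ogdh had 63953 and 60912 counts in the first and 69914 and 66502 in the second quantification, a log2 difference of -0.13 in each library, against -0.86 and -0.86 in TPM. Over the 33 genes the log2 of first over second counts stayed under 0.2 in size in 32, and reached 0.22 in Sdhd. The shares of TPM in short transcripts differed as well. Transcripts shorter than 1000 bases held 10.1% of the Ogdh TPM in the first and 45.8% in the second quantification, 17.7% and 47.3% of Dlst, and 51.2% and 73.6% of Fh1. In the genes that were higher in the first quantification the shares ran the other way: 44.1% in the first and 9.74% in the second for Mdh1, 26.0% and 2.99% for Sdha, and 91.8% and 82.5% for Sdhc. The part of these shares in the TPM differences was not tested.

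**Figure D4:**
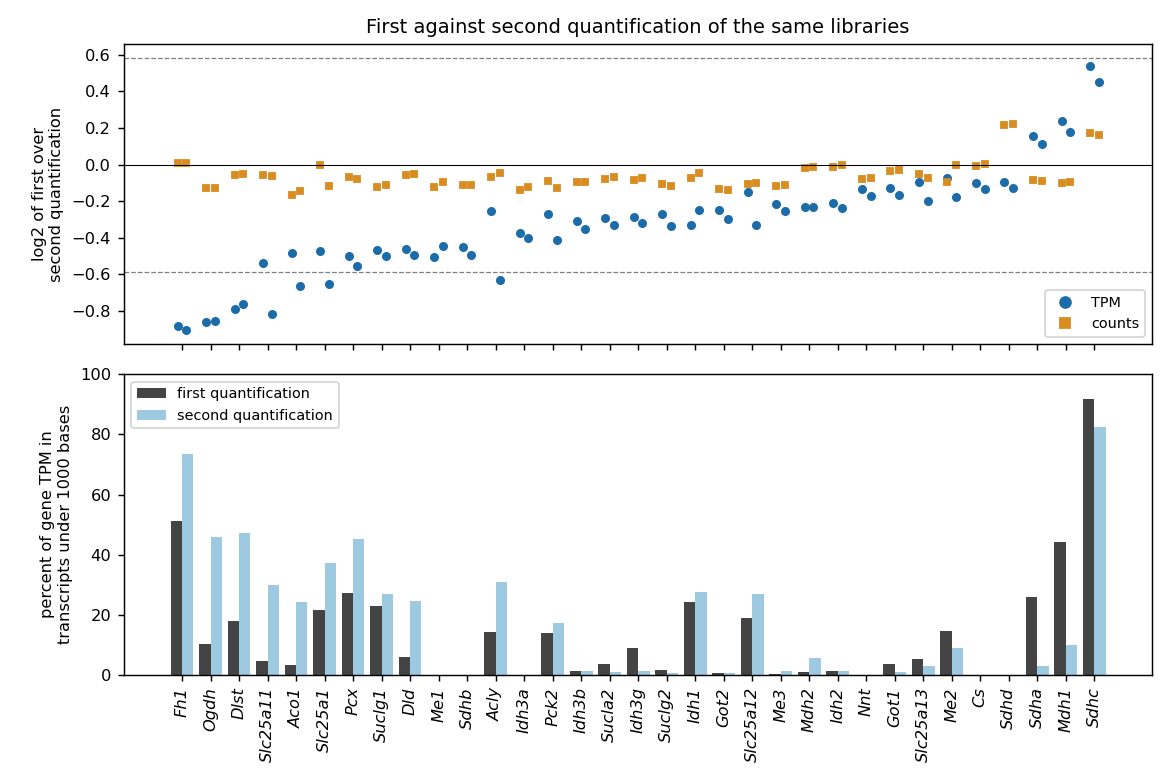
Above, log2 of the first over the second quantification for TPM (circles) and counts (squares), with 1 point per library and dashed lines at 1.5-fold. Below, percent of each gene's TPM in transcripts shorter than 1000 bases, dark for the first and light for the second quantification (mean of 2 libraries). Fh1, Ogdh and Dlst lie past the line in TPM but near 0 in counts, and hold more of their TPM in short transcripts in the second quantification.

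Across the set, most genes had a clear leading transcript, and it was mostly a coding one. In 29 of 33 genes in the first and 26 in the second quantification, 50% or more of the TPM lay in 1 leading transcript, where 72.3% and 68.4% of detected nuclear protein-coding genes had such a leader. The share was 90% or more in 11 genes in each. Sdhd has a single annotated transcript, and Cs-201, Got2-201, Sdhb-201 and Idh2-201 held between 98.1% and 99.8% in the first quantification. The same transcript led in both quantifications in 28 genes, and another one in Idh3a, Fh1, Nnt, Idh1 and Pcx. The libraries were led by different transcripts in Acly and Pcx in both quantifications, and in Pck2 in the second. In the first quantification Acly-203 led in replicate 1 with 40.5% and Acly-201 in replicate 2 with 49.2%, and Pcx-204 held 6.85% in replicate 1 and 59.1% in replicate 2.

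Protein-coding transcripts held a median of 96.9% of the TPM of the 33 genes in the first quantification and 97.3% in the second, against 91.0% and 89.1% over all detected nuclear protein-coding genes. Under 50% was coding in 2 genes in the first, Slc25a12 and Me3, where 8.43% of genes fell under that share. In the second it was 5 genes, with Idh3a, Dlst and Fh1 added, where 10.7% did. Dlst-201, its only coding transcript, held 71.05% and 77.9% in the first and 35.5% and 40.2% in the second quantification. Fh1-204, annotated as a target of nonsense-mediated decay, held 15.8% and 15.3% in the first and 38.0% and 38.2% in the second.

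**Figure D5:**
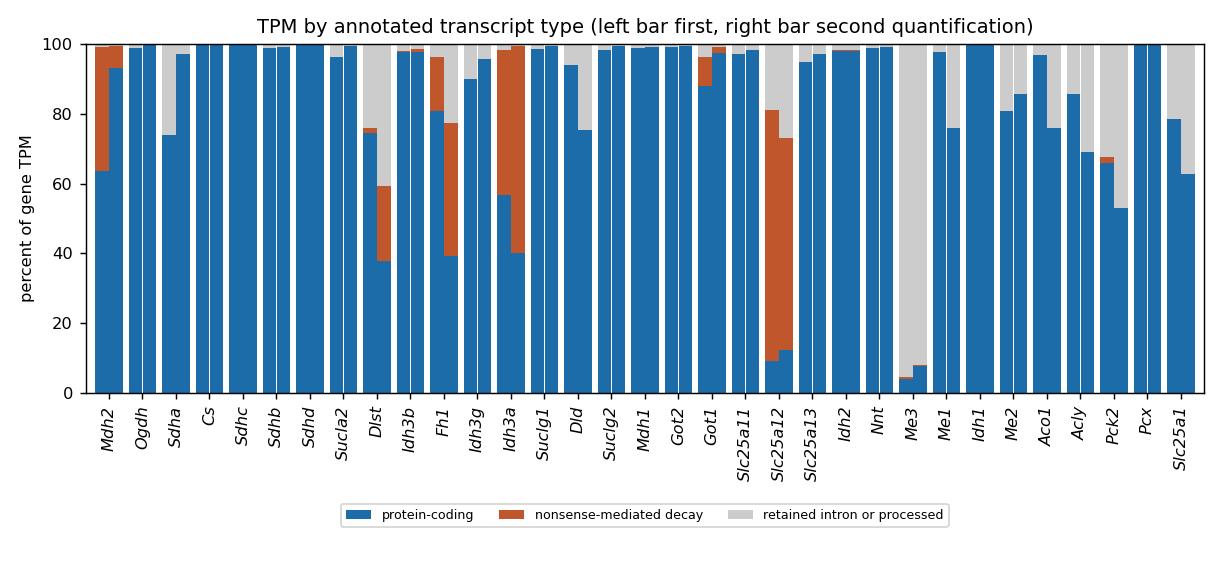
Percent of each gene's TPM (mean of 2 libraries) in transcripts annotated as protein-coding (blue), as targets of nonsense-mediated decay (orange), and as retained introns or processed transcripts (grey), with the first quantification as the left and the second as the right bar. Slc25a12 and Me3 are mostly not blue in both, and Mdh2, Idh3a, Fh1 and Dlst change between the bars.

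In the first quantification most of these genes had counts that were not divided with other genes. Expected counts were whole numbers, within 0.005, in 29 of 33 genes, and the exceptions were Cs, Got2, Suclg2 and Me1. Whole counts do not show that the reads were unique: Nnt had them although Nnt-206, of the other Nnt gene, lies within Nnt-202. In the second quantification some of the 29 had fractions, such as Idh3b with 12795.7 and Nnt with 14448.7 counts in replicate 1. The processed pseudogene Got2-ps1 on chromosome 5 had 2879 and 2899.6 counts, or 85.8 and 89.5 TPM, and how much of this came from Got2 itself, with 22555 and 21367 counts, was not tested. The annotation places another gene over 16 of the 33, but such a gene reached 10 TPM in 2 cases only, both on the opposite strand: Nop56 beside Idh3b at 14.6 and 12.9 TPM, and Rnf167 beside Slc25a11 at 22.8 and 20.8 TPM. The sources used here do not say whether the counting used strand, and the part of these neighbours in the levels was not tested.

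The promoters were searched on both strands for a motif each of the estrogen-related receptors and of NRF1, factors known for driving genes of oxidative metabolism. RefSeq promoters (GRCm38.p6, 250 bases before to 50 after the start) were matched for 29 of the 33 genes, leaving out Idh3a, Me2, Nnt and Sdhc. The extended receptor motif TNAAGGTCA was in 1 gene, Sdhd, or 3.45%, against 1.43% of all 27025 genes. The palindromic NRF1 motif was in 0 genes, against 1.07%. The Sdhd match lies on chromosome 9 in the promoter window chr9:50603800-50604099 (minus strand), 36 bases after the RefSeq start. In the annotation used for the levels Sdhd starts at another place, 50603812, so the distance holds for the RefSeq start only. The match is shown in capitals as the reverse complement.
Sdhd match: ggttgtagagTGACCTTGAgccct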

How the data were processed

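The tables of the first quantification have the columns RSEM writes. Per the file headers they hold expected counts, per gene and per transcript, that the authors' program estimated without normalization. They also hold TPM, scaled by the authors over all rows, and a posterior mean TPM with interval bounds, a deposited score of precision within 1 library. The share of each transcript in its gene's TPM is deposited there as a percent. Tables of the second quantification, whose columns are those kallisto writes, hold estimated counts and TPM per transcript, as deposited, and were summed here by gene symbol. The deposited readme files name mm10 and GENCODE M21; the programs and their versions are not named there.

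Means and SD are over 2 libraries, and no test between groups was possible. Genes detected had a mean TPM of at least 1. Differences between libraries used log2(TPM + 1), a median shift of -0.03 removed, and a mean expected count of at least 50. The formula for this difference was tried on simulated CPM without the rule on intervals, so the call itself was not tested. CPM ratios carry exact Clopper-Pearson intervals at 95%. Alternatives used TMM factors (edgeR 4.0.16) and size factors (DESeq2 1.42.0) under R 4.3.3. Other steps used Python 3.11.15 with pandas 2.3.3, numpy 2.4.6, scipy 1.17.1 and matplotlib 3.10.9. Named are all 33 genes, and of 27 other pathway genes the 6 highest, 1 of which is not reported here, and partners in a pair. The members, lists, pairs and rules were chosen with earlier results of these data known.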

Additional observations from a re-analysis of the deposited data

How the results depend on the processing

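No paired analysis was possible because there is 1 group. The median TPM of the 33 genes was 242.5, and 307.5 in the second quantification, 237 with the posterior mean TPM, 276 as CPM and 564 after rescaling over nuclear protein-coding genes; leaving out each library gave 242 to 243. Genes at 100 TPM or more numbered 21 to 24 under all alternatives. Their share of nuclear protein-coding TPM was 1.80% in the second quantification, 1.93% with the posterior mean and 1.87% from CPM, and 1.95% to 1.98% without a library, against 1.96%. The 1 gene called between libraries, Got1, against 6.84% of all genes, became 0 with no median removed, where 899 of all genes were called. The count became 2 by size alone (Got1 and Pcx), against 16.9% of all genes. By size in the second quantification it became 6 (Aco1, Got1, Idh1, Nnt, Pcx and Slc25a11), where 2616 of all genes passed. TMM, size factors, a pseudocount of 0.1 and no filter on counts each gave 1, where 854, 841, 928 and 970 of all genes passed. The 3 genes apart between quantifications, against 11.2% of all genes, became 7 without replicate 1 and 3 without replicate 2. They became 0 on counts, and 2 others, Mdh1 and Sdhc, after rescaling. No share over all genes is given for these alternatives. Pairs with the first gene higher numbered 7 to 10.

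Directions that turned were those of 3 pairs. Mdh2 over Mdh1 was -0.25, but 0.19 in the second quantification and 0.10 there over protein-coding transcripts, which in the first gave -0.88. Slc25a12 over Slc25a13 was 1.11, but -2.29 and -1.80 over protein-coding transcripts in the first and second quantification. Me3 over Me1 was 0.46, but -0.59 as CPM, and -4.18 and -3.11 over protein-coding transcripts. The coding comparisons were added after seeing the data, and the cause of these turns was not tested. Leaving out either library turned no pair and kept the count of genes whose leading transcript holds 50% or more at 28 to 30. With 2 libraries of 1 group, the SD is a rough measure of spread, and shares of transcripts with mostly common sequence are estimates of the programs.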
